A study of Mus musculus with 18 samples.

Results

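H19, Igf2 and Rasgrf1 are imprinted genes, of which only the allele from the mother (H19) or from the father (Igf2 and Rasgrf1) is expressed, and they were examined here for the CpG methylation that mouse embryonic stem cells (ESCs) kept after the maintenance methyltransferase gene Dnmt1 was deleted. They are 3 of the 37310 genes of the annotation used (GENCODE vM1 on build NCBIM37) and were chosen by name, together with the 10 kb upstream of H19 and the 40 kb upstream of Rasgrf1. H19 (ENSMUSG00000000031.9) lies at chr7:149761434-149764048 on the minus strand, Igf2 (ENSMUSG00000048583.9) at chr7:149836673-149852721 on the same strand, and Rasgrf1 (ENSMUSG00000032356.6) at chr9:89804613-89921814 on the plus strand. Cut into 2 kb bins from each gene start, these stretches made 95 bins, of which 41 had at least 5 methylation calls in each of the 10 groups of genotype and day and entered the genome-wide test. That test covered 424944 of the 1277931 2 kb bins of the autosomes and the X chromosome.

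The study profiled ESCs by whole-genome bisulfite sequencing at days 1, 3, 6, 9 and 11, with 9 control libraries labelled Wildtype and 9 Dnmt1 KO libraries, 2 of each genotype at every day except day 6, which had 1 of each. By the study's methods the KO line carries loxP-flanked Dnmt1 alleles that Cre removes after 4-hydroxytamoxifen, and the cells were grown in serum and LIF with or without feeder cells. The labels give the background strain of all libraries as E14, whereas the methods describe the floxed line as C57BL/6, and whether the control cells received 4-hydroxytamoxifen is not given in the sources used here. Replicates are separate samples by their labels, but nothing there says that they came from separate cultures. The p-values of regions below thus measure the spread between these libraries. Those of 2 kb bins in the main model rest on a spread estimated wholly or mostly over all bins. They hardly reflect the spread of a bin's own libraries.

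In mammals, DNA methylation laid down in a parent's germ cells marks imprinted loci for life, and DNMT1 copies it to the new strand after each replication. At H19 and Igf2 a control region between the genes and near H19 is methylated on the paternal allele. On the maternal allele the insulator protein CTCF binds there unmethylated and keeps Igf2, a growth factor of the fetus, away from enhancers that H19, a long noncoding RNA, then uses. Rasgrf1, which encodes an exchange factor that activates Ras, is expressed from the paternal allele in neonatal brain, and its differentially methylated region beside a tandem repeat far upstream is methylated on that allele too. A locus methylated on 1 allele of each cell gives a level near the middle of the scale, and the libraries do not separate the alleles.

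A level below is the percent of methylated calls among all CpG calls of a stretch, where a call is the read-out of 1 cytosine in 1 read. The libraries held 7190722 to 11158414 calls each, at 1.202 to 1.25 calls per listed cytosine, so a 2 kb bin rested on few reads and CpGs read together are not independent. The 95% intervals are exact binomial ones, cover counting error only and are too narrow for that reason. Where no call was methylated, the level that this allows is given as 3 calls of the total. That limit also takes the calls as independent and is too low where they come from few reads. The stretch from exon 4 to exon 5 of Dnmt1 held 2 to 18 calls in each of the 9 control libraries, 0 and 2 calls in the KO libraries of day 1 and 0 calls in all 7 KO libraries of days 3 to 11. Over the autosomes, the pooled level was 76.0% in control and 70.1% in KO at day 1, 75.6% against 34.1% at day 3, and 75.1% against 24.6% over days 6 to 11.

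The CTCF motif searched for is the one known from the H19 control region, so matches there were given in advance and serve to place its sites. In the 10 kb upstream of H19, CCGCNNGGNGGCAG matched 4 times on either strand. All 4 were on the minus strand and in the bin from 2 to 4 kb upstream (chr7:149766049-149768048). Of all 2 kb bins, 522, or 0.0408%, held any match. The other member bins of H19 and all of those of Igf2 and Rasgrf1 held none. The matches are shown 5′ to 3′ on the minus strand with 10 bases on either side, since their CpGs are the ones whose methylation is read out next, and capitals mark the match. Their positions are chr7:149766204-149766237 for site 1, chr7:149766659-149766692 for site 2, chr7:149767685-149767718 for site 3 and chr7:149767929-149767962 for site 4 (NCBIM37).
site 1: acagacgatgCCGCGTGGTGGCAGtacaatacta
site 2: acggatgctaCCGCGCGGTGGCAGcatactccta
site 3: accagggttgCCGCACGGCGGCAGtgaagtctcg
site 4: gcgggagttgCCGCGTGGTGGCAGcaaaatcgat

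The 10 CpGs inside these 4 matches were methylated at 32 of 52 calls (61.5%, 47.0 to 74.7) in the control libraries of all days. In KO libraries they were methylated at 11 of 16 calls (68.8%, 41.3 to 89.0) at day 1 and at 4 of 10 (40%, 12.2 to 73.8) at day 3. Over days 6 to 11 none of 18 calls was methylated, which allows a level of up to 16.7%. All 4 sites had calls in control libraries, from 2 of 4 methylated at site 4 to 15 of 21 at site 2, and all 4 had none methylated of 2 to 7 calls in KO libraries of days 6 to 11. These 18 calls come from few molecules and carry no test of their own. Control calls at the sites were not counted for days 6 to 11 alone. In the 200 bp bins that hold sites 1 to 4, control libraries of those days had 8 of 14, 1 of 12, 13 of 31 and 0 of 4 methylated calls. KO libraries of those days had 0 of 9, 0 of 10, 3 of 35 and 4 of 22 there. Around sites 2 and 4 control calls of the same days were thus low as well.

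The whole bin from 2 to 4 kb upstream of H19, with 60 CpGs, was partly methylated in control cells and fell in the KO. Control libraries read 81.8% and 65.7% at day 1, 50.0% and 78.9% at day 3, 100% at day 6, 68.8% and 0% at day 9, and 25.8% and 45.7% at day 11. KO libraries read 69.2% and 78.3% at day 1, 27.9% and 44.7% at day 3, 0% at day 6, 8.70% and 21.1% at day 9, and 3.57% and 14.3% at day 11. The groups overlapped at days 1 and 9, and the control libraries spread over the whole scale with 10 to 70 calls each. Summed over days 6 to 11, 49 of 106 control calls were methylated (46.2%, 36.5 to 56.2) against 10 of 119 in the KO (8.40%, 4.10 to 14.9). The mean difference over the 5 days, KO minus control, was -34.9 points (exact two-sided permutation of genotype within days, p = 0.0347, 0.0397 after Benjamini-Hochberg adjustment over the 8 regions tested).
That call depended on single libraries, since the adjusted p rose above 0.05 when any of 12 of the 18 was left out. Without either library of day 6, where control read 14 of 14 and KO 0 of 28, the difference was -18.6 points (adjusted p = 0.0794, exact permutation).

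The DNA between this control region and H19 lost methylation too. From 0 to 2 kb upstream, which holds the H19 promoter, control libraries ranged from 46.2% to 100%. KO libraries read 100% and 94.6% at day 1, 48.6% and 17.6% at day 3, 10.7% at day 6, 14.3% and 0% at day 9, and 0% and 3.12% at day 11. From day 3 on, all 7 KO libraries lay below every control library of the same day. The pooled level over days 6 to 11 was 73.1% (61.8 to 82.5) in control and 5.41% (2.01 to 11.4) in KO, and the mean difference was -46.6 points (exact permutation p = 0.00772, adjusted 0.0123).
The 4 to 10 kb upstream, beyond the control region, stood at 85.5% (76.1 to 92.3) in control and 18.3% (10.1 to 29.3) in KO over the same days. KO libraries there read 84.6% and 86.4% at day 1, 60% and 40% at day 3 and 9.09% to 27.3% later, and all 7 of days 3 to 11 lay below their day's control libraries. The mean difference was -47.4 points (exact permutation p = 0.00540, adjusted 0.0108).

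The H19 gene body fell as well. It read 75.7% (64.0 to 85.2) in control and 35.2% (25.3 to 46.1) in KO over days 6 to 11. KO libraries read 83.3% and 47.1% at day 1, already below the controls of that day at 84.4% and 88.2%. The difference at day 1 was -21.1 points, beside a mean of -34.8 points over days 3 to 11. From day 3 on KO libraries ranged from 12.5% to 50.0%, with 4 to 33 calls each. Control libraries ranged from 0% to 100%, with 1 to 32 calls each. The groups overlapped at day 9, where control read 0% (0 of 1 call) and 52.4% and KO 50.0% and 12.5%. The test below gives each library the same weight whatever its calls. The mean difference was -32.1 points (exact permutation p = 0.0270, adjusted 0.0360). It no longer passed with libraries paired by number (adjusted p = 0.0580, exact sign-flip test) or without any of 7 libraries. The 2 kb from the start, which holds Mir675, fell from 39 of 56 calls to 16 of 69. In the last 615 bases of the gene, by contrast, 15 of 19 KO calls of days 6 to 11 were methylated (78.9%, 54.4 to 93.9) against 14 of 14 in control. By day the KO calls were 0 of 2 at day 6, 9 of 10 at day 9 and 6 of 7 at day 11. KO day 9 replicate 2 had 1 methylated call of 8 in the whole gene body, so most of the 9 came from replicate 1. The pooled 78.9% was the highest KO level of the locus, from 12 CpGs and few reads. It could not be tested genome-wide because the bin had no call in the KO at day 3.

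**Figure D1:**
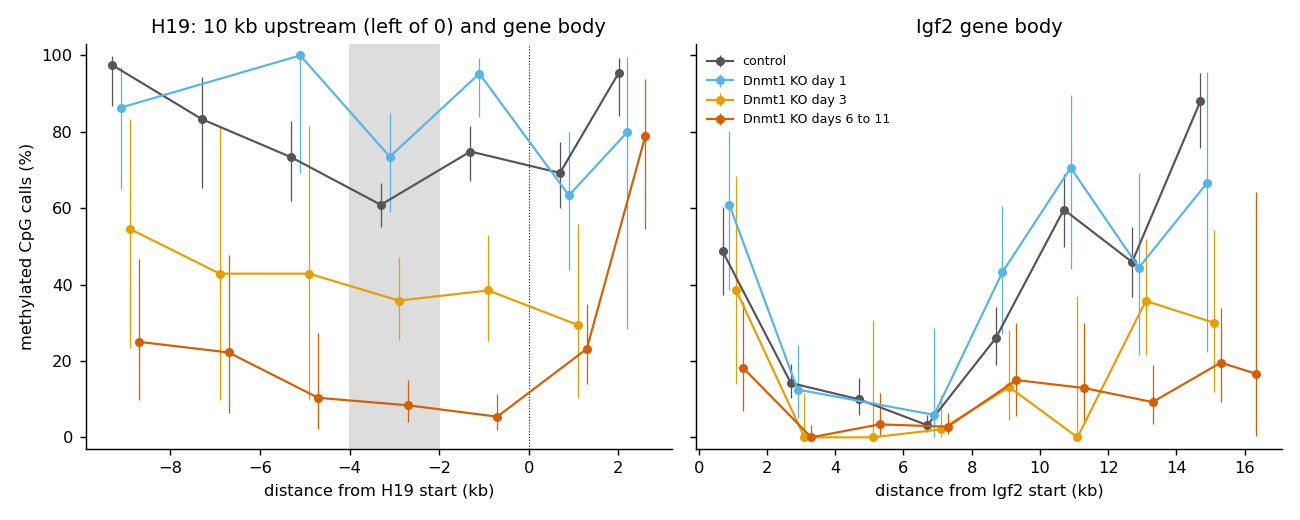
Percent of methylated CpG calls (y axis) in 2 kb bins by distance from the gene start in kb (x axis) for H19 with its 10 kb upstream (left) and the Igf2 body (right), with all libraries of a group pooled, bins of at least 5 calls and exact 95% intervals. The grey band marks 2 to 4 kb upstream of H19, where KO libraries of days 6 to 11 sit at 8.40%, and the Igf2 bins from 2 to 8 kb are low in control as well as in KO cells.

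The Igf2 gene body was the least methylated of the loci in control cells. Control libraries ranged from 6.52% to 41.5% and KO libraries from 5% to 44.2%. Pooled over days 6 to 11, 159 of 556 calls were methylated in control (28.6%, 24.9 to 32.6) and 39 of 573 in KO (6.81%, 4.88 to 9.19). The KO libraries of day 1, at 31.1% and 44.2%, lay above both control libraries of that day, at 24.5% and 26.5%. At day 11 the control replicate 1 read 6.52%, close to the KO libraries at 5.26% and 5%, while control replicate 2 read 34.01%. The mean difference over the 5 days, -10.1 points, did not pass the test (exact permutation p = 0.109, adjusted 0.109).
Within the gene the CpG-dense bins were the low ones. The bin from 6 to 8 kb into Igf2 had 164 CpGs, the most of any member bin, and stood at 3.03% (4 of 132 calls) in control and 2.79% (5 of 179) in KO over days 6 to 11. The bin from 2 to 4 kb, with 71 CpGs, fell from 25 of 118 calls to 0 of 114, which allows up to 2.63%. The bins at 10 to 12 and 12 to 14 kb, which hold exons, fell from 60.6% to 12.9% and from 58.0% to 9.23%. The bins up to 8 kb overlap Igf2as, an antisense transcript, and a call cannot be given to either gene.

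Rasgrf1 had the most calls and the most even record. Its body, 117 kb in length and mostly intron, read 71.6% to 89.6% in the 9 control libraries. KO libraries read 71.5% and 71.9% at day 1, 34.6% and 42.4% at day 3, 33.5% at day 6, 27.4% and 26.3% at day 9, and 25.9% and 31.8% at day 11. Each KO library lay below every control library of its day, day 1 included. Over days 6 to 11 the pooled level was 81.8% (80.1 to 83.4) in control and 29.4% (27.4 to 31.5) in KO, and the mean difference was -40.6 points (exact permutation p = 0.00077, the smallest the design allows, adjusted 0.00617).

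The upstream sequence ended lower than the body. Outside the bin from 30 to 32 kb, the 40 kb before Rasgrf1 read 55.3% to 83.3% in control. KO libraries read 57.0% and 79.2% at day 1, 28.6% and 24.4% at day 3, and 9.68% to 18.97% from day 6 on, where all lay below the controls. Pooled levels over days 6 to 11 were 68.8% (65.4 to 72.1) in control and 14.8% (12.0 to 17.9) in KO, and the mean difference was -41.8 points (exact permutation p = 0.00154, adjusted 0.00617).
Taking the whole 40 kb, the log2 ratio of the body level to the upstream level averaged 0.17 in control and 0.72 in KO libraries. The within-day difference was 0.57 (exact permutation p = 0.0108, 0.0216 adjusted over the pair of genes so compared), and the ratio was above every control library of the day in 6 of the 7 KO libraries of days 3 to 11. This comparison was chosen after the levels had been seen. It did not pass with libraries paired by number (adjusted p = 0.0625, exact sign-flip test), nor without control day 11 replicate 1 or 2, KO day 1 replicate 1 or KO day 11 replicate 2, at 0.46 to 0.63 and adjusted p of 0.0509 to 0.0895. The same ratio at H19 differed by 0.98 (exact permutation p = 0.0918).

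**Figure D2:**
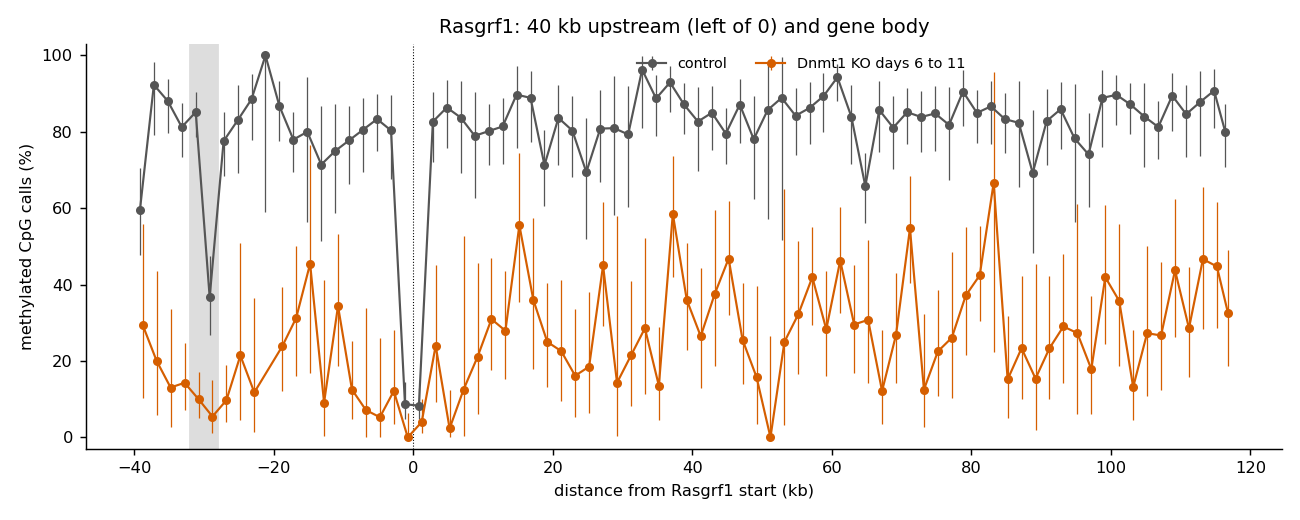
Percent of methylated CpG calls (y axis) in 2 kb bins by distance from the Rasgrf1 start in kb (x axis, upstream to the left of 0) for all control libraries and for KO libraries of days 6 to 11, with exact 95% intervals and bins of at least 5 calls. The grey band marks 28 to 32 kb upstream. Control levels dip there, at 36.7% from 28 to 30 kb, and at the gene start.

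The differentially methylated region of Rasgrf1 was sought from 30 to 32 kb upstream (chr9:89772613-89774612), by its textbook distance, and the control level there was high and not intermediate. Control libraries ranged from 60.0% to 100%, with 91.0% (83.1 to 96.0) over days 6 to 11. KO libraries read 71.4% and 84.6% at day 1, 44.4% and 12.5% at day 3, 22.7% at day 6, 9.09% and 40% at day 9, and 14.3% and 0% at day 11, from 5 to 51 calls. All 7 KO libraries from day 3 on lay below the controls of their day, and the mean difference of -53.5 points was larger than that of any other region tested (exact permutation p = 0.00463, adjusted 0.0108). Pooled over days 6 to 11 the KO level was 10% (5.10 to 17.2), which KO day 11 replicate 2 set with 0 of 51 calls, since without it the level was 18.6% (11 of 59 calls).

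The neighbouring bin, from 28 to 30 kb upstream (chr9:89774613-89776612), was the intermediate one. It had 57 CpGs and read 33 of 90 calls methylated (36.7%, 26.8 to 47.5) over all control libraries. Single control libraries read 100% and 29.6% at day 1, 38.5% and 30% at day 3, 0% at day 6, 100% and 0% at day 9, and 0% and 55.6% at day 11, from 4 to 27 calls each. The pooled level was thus intermediate while 5 of these 9 libraries sat at 0% or 100%. In the KO it read 4 of 6 calls at day 1, 3 of 16 at day 3 and 3 of 55 (5.45%, 1.14 to 15.1) over days 6 to 11. In the genome-wide test its difference at days 6 to 11 was -30.7 points with an SE of 11.7 (quasi-binomial model moderated with limma, adjusted p = 0.0106). That call rested on control day 9 replicate 1, with 8 of 8 calls methylated. Without it the control level of days 6 to 11 went from 36.1% to 17.9% (5 of 28 calls) and the difference to -12.4 points (same model, adjusted p = 0.253). All 3 methylated KO calls of these days came from KO day 9 replicate 2, without which the KO read 0 of 46. The choice of this bin was made after its level was seen, and with it in place of the bin from 30 to 32 kb the within-day difference over the 5 days was -12.9 points (exact permutation p = 0.421).
A CpG-rich stretch of 300 bases with 30 CpGs spans the border between both bins, from 29851 to 30150 bases upstream (chr9:89774463-89774762, NCBIM37). It is printed on the plus strand because the level of all control libraries pooled changed within it, with each CpG in capitals.
Rasgrf1 upstream: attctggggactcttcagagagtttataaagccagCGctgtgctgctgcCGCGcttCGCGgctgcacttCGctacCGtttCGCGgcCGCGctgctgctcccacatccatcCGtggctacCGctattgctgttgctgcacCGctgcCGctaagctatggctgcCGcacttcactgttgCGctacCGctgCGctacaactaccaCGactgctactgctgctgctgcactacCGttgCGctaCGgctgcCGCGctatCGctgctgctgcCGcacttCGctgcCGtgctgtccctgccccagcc

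In control libraries of all days 11 of 40 calls in this stretch were methylated (27.5%, 14.6 to 43.9). In KO libraries it had 1 call at day 1 and 1 at day 3, neither methylated, and 0 of 45 over days 6 to 11, which allows up to 6.67%. At finer steps all control libraries together went from 0 of 21 methylated calls at 29.8 to 30 kb to 14 of 23 at 30 to 30.2 kb and 43 of 46 at 31 to 31.2 kb. Control libraries of days 6 to 11 alone read 0 of 6, 1 of 4 and 28 of 28 there. The step at 30 kb thus came mostly from days 1 and 3, rests on few reads and was looked at after the levels were seen. The hexamer TGCCGC, which the imprint-protecting protein ZFP57 recognises when methylated, occurred 5 times in these 300 bases on either strand and 4 times in the bin from 28 to 30 kb. Only 0.0764% of all 2 kb bins held 4 or more, while 10.9% held any. The H19 bin from 2 to 4 kb upstream held 5, a number reached by 0.0288% of bins, and 4 of its 5 overlapped the CTCF matches. The hexamer holds a CpG, and these shares were not matched for the CpGs of a bin, 57 at Rasgrf1 and 60 at H19. At the CpGs of these hexamers at H19, 14 of 26 calls were methylated in control libraries of all days. In KO of days 6 to 11 it was 0 of 11, which allows up to 27.3%. From 28 to 32 kb upstream of Rasgrf1 the figures were 7 of 17 and 0 of 16, which allows up to 18.8%. Control calls at the hexamers were not counted for days 6 to 11 alone, so these figures do not compare the same days.

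**Figure D3:**
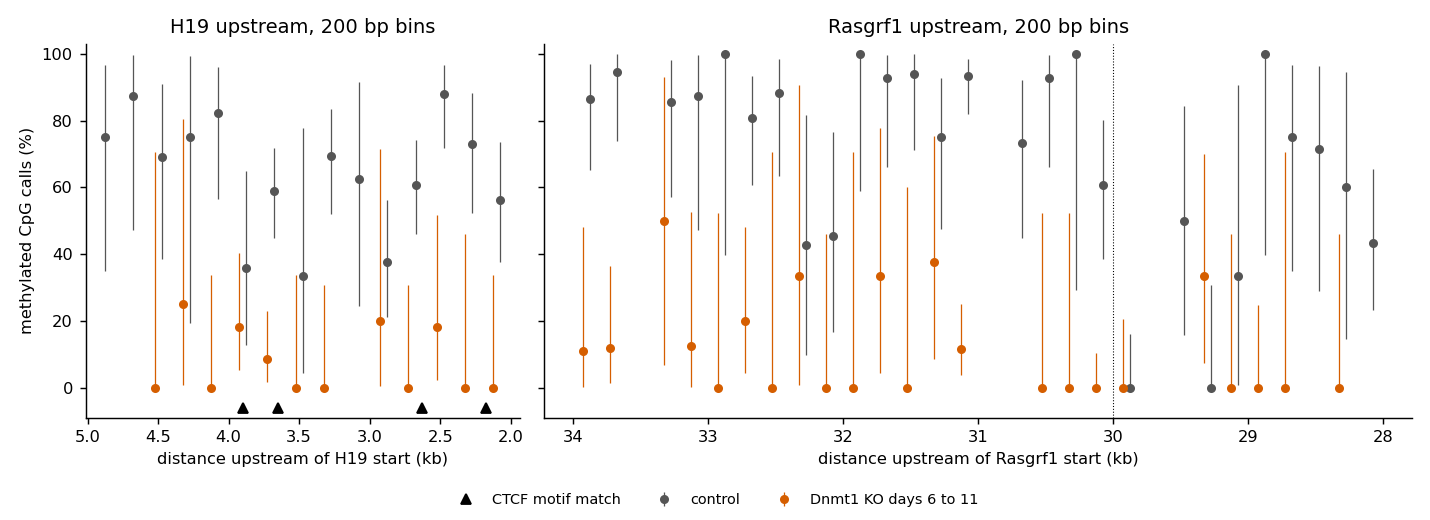
Percent of methylated CpG calls (y axis) in 200 bp bins by distance upstream of the H19 start (left) and the Rasgrf1 start (right) in kb (x axes), for all control libraries and KO libraries of days 6 to 11, bins of at least 3 calls, exact 95% intervals. Triangles mark the 4 CTCF motif matches and the dotted line the border at 30 kb, beside which 0 of 21 and 14 of 23 control calls were methylated. Over days 6 to 11 alone these were 0 of 6 and 1 of 4.

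At the Rasgrf1 start both genotypes were low. The bin from 0 to 2 kb upstream, with 91 CpGs, had 8 of 106 methylated calls in control and 0 of 56 in KO over days 6 to 11, which allows up to 5.36%. The 2 kb from the start had 13 of 87 (14.9%) and 4 of 100 (4%). These were the lowest control levels of the upstream sequence and of the body. Among bins with at least 5 calls in the KO of days 6 to 11, the highest levels were 45.5% (5 of 11 calls) at 14 to 16 kb upstream and 66.7% (4 of 6 calls) at 82 to 84 kb into the body, both from few calls, and the lowest in the body was 0 of 12 at 50 to 52 kb, which allows up to 25%. The median bin held 12.5% upstream and 27.3% in the body.

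Within a library, the H19 control-region bin and the Rasgrf1 bin from 30 to 32 kb were compared with the rest of their loci. That Rasgrf1 bin was high and not intermediate in control cells. The rest of its upstream sequence held the intermediate neighbouring bin (33 of 90 control calls methylated) and the low bin next to the gene start (13 of 150). The Rasgrf1 values below thus do not describe an intermediate bin. In control cells the H19 bin lay 20.8 points below the rest of the H19 locus on average, in 7 of 9 libraries (exact sign-flip permutation p = 0.0508, 0.102 adjusted over 4 tests). The Rasgrf1 bin from 30 to 32 kb lay 14.3 points above the rest of its upstream sequence (p = 0.0469, adjusted 0.102, exact sign-flip permutation). In KO libraries of days 3 to 11 these differences were -6.33 points (p = 0.297) and 2.39 points (p = 0.734) by the same exact permutation. None passed the adjusted threshold. The KO minus control change at the H19 bin (-34.9 points) minus that at the Rasgrf1 bin (-53.5 points) was 18.6 points (exact permutation p = 0.152), so the smaller loss at H19 was not shown to differ.

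Measured against the fall of the whole genome, none of the 8 regions stood apart at the adjusted threshold. On the log2 scale of region level over autosomal level in the same library, with 0.5 calls added, the rest of the Rasgrf1 upstream sequence changed by -0.40 (exact permutation p = 0.0108, adjusted 0.0864) and lay below every control library of the day in 7 of 7 KO libraries of days 3 to 11. The 0 to 2 kb upstream of H19 changed by -1.03 (exact permutation p = 0.0401, adjusted 0.160), in 6 of 7 libraries. The remaining 6 regions had values from -0.72 for Rasgrf1 30 to 32 kb upstream to 0.36 for the H19 body, with adjusted p from 0.356 to 0.731 (exact permutation). As a share of the control level of days 6 to 11, the KO kept 7.40% at 0 to 2 kb upstream of H19, 18.2% at the H19 control region, 21.4% at 4 to 10 kb, 46.5% in the H19 body, 23.8% in Igf2, 36.0% in the Rasgrf1 body, 10.99% at 30 to 32 kb upstream and 21.5% in the rest of that sequence, beside 32.7% over the autosomes. Without KO day 11 replicate 2 the share at 30 to 32 kb upstream was 20.5%.

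**Figure D4:**
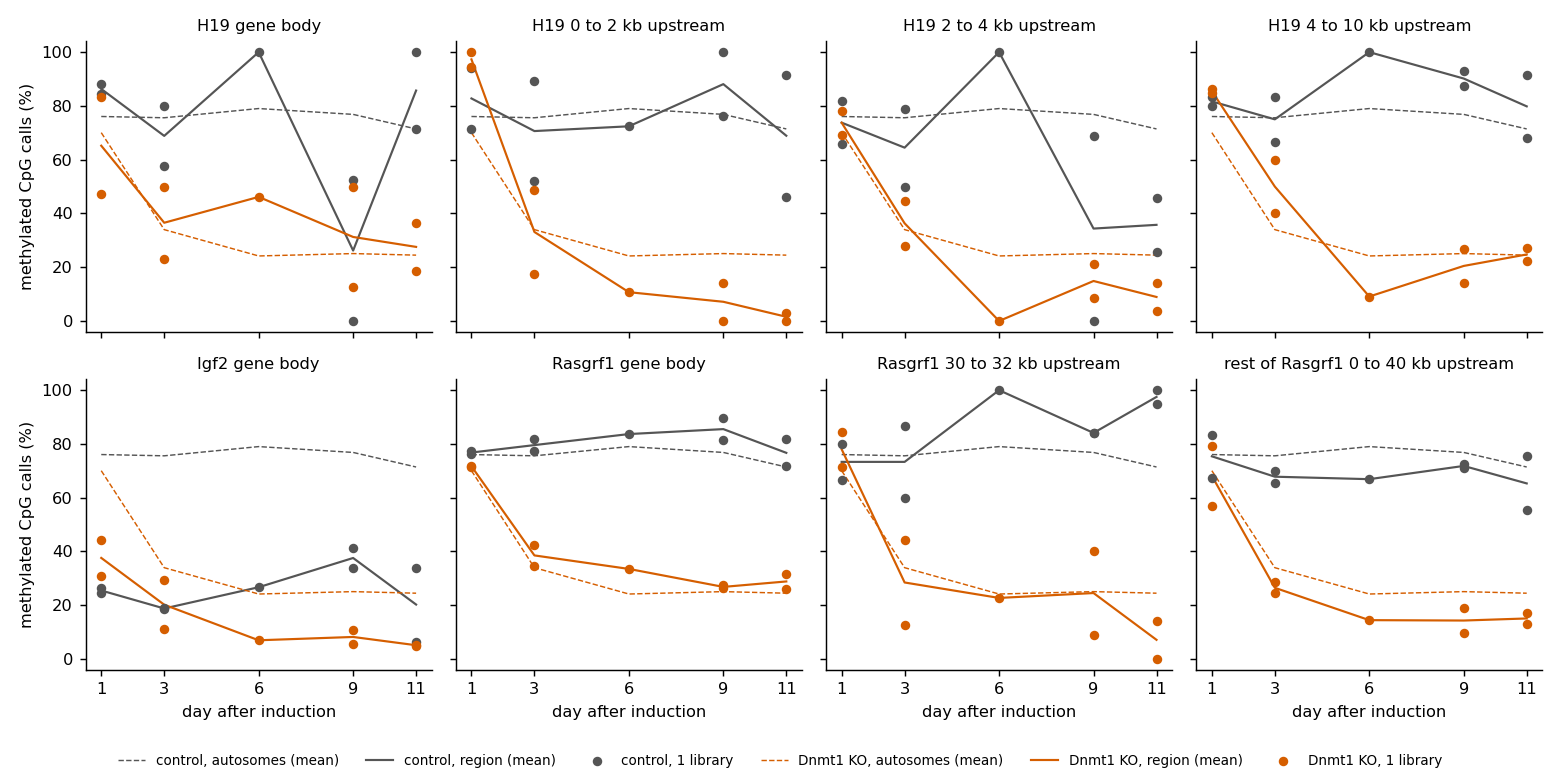
Percent of methylated CpG calls (y axes) in each library by day (x axes, days after induction) for the 8 regions, with 1 point per library, solid lines through the means of a day and dashed lines for the mean autosomal level of the same genotype. KO points of days 3 to 11 fall below the control points of their day in the H19 stretches from 0 to 2 and 4 to 10 kb and in all 3 Rasgrf1 regions.

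Most of the loss was seen between day 1 and day 3. At day 1 no member bin of the 41 tested was called by the quasi-binomial model, against 0.148% of all bins called lower. An unadjusted p under 0.05 in that model was reached by 2 of the 41, beside 32570 of all 424944 bins. A call needed a change of 10 points or more and an adjusted p below 0.05. limma on log2 ratios called 0 of 27 member bins and 1 of 339215 bins genome-wide. At such shares a count of 0 says nothing about the members. The median member difference at day 1 was -6.58 points, beside -6.43 over all bins. At day 3, 20 of 41 member bins were lower, 48.8% against 53% of all bins, with medians of -38.9 and -43.4 points. Between KO day 1 and KO day 3, 14 of 41 fell, 34.1% against 39.6%, with medians of -37.7 and -37.5 points.
After day 3 no further loss was called in single member bins. From KO day 3 to KO days 6 to 11, 0 of 41 member bins were called by the quasi-binomial model. An unadjusted p under 0.05 in that model was reached by 5 of the 41, beside 43577 of all 424944 bins. Of all bins 0.527% were called lower, and the medians were -4.76 and -8.08 points. limma called 0 of 27 member bins and 3 of 339215 bins genome-wide. With so few calls in the genome, none among the members tells nothing about them. As pooled levels, 0 to 2 kb upstream of H19 stood at 38.5% (25.3 to 53.0) in the KO at day 3 and the H19 bin from 2 to 4 kb at 35.8% (25.4 to 47.2), above the 5.41% and 8.40% of days 6 to 11. No member bin was called higher in any of these comparisons. Of all 424944 bins only 68 to 215 were, so this says nothing about the members.

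Against control, 21 of 41 member bins were called lower at day 6, 28 at day 9 and 20 at day 11, or 51.2%, 68.3% and 48.8%, beside 62.6%, 69.7% and 63% of all bins. With days 6 to 11 summed, 36 of 41 were lower, 87.8% against 95.3%, and the median difference was -48.9 points beside -52.5. By locus these were 4 of 4 H19 bins, 3 of 5 Igf2 bins, 6 of 7 Rasgrf1 upstream bins and 23 of 25 Rasgrf1 body bins. Among the largest losses were 81.9 points at 4 to 6 kb into the Rasgrf1 body and 81.0 points at 30 to 32 kb upstream of it, as decreases from control.
The 5 bins without a call were mostly those that control cells already kept low. In Igf2 they were the bins at 6 to 8 kb (-0.24 points) and 8 to 10 kb (-8.81). At Rasgrf1 they were both bins at the start (-7.55 upstream, -10.9 in the body) and the body bin at 14 to 16 kb. The last fell short with -29.1 points and an SE of 15.6 (quasi-binomial model with limma moderation, adjusted p = 0.0667). The Igf2 bin at 6 to 8 kb and the bin upstream of the Rasgrf1 start stood at 3.03% and 7.55% in control. Neither could thus fall by the 10 points that a call needs.

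**Figure D5:**
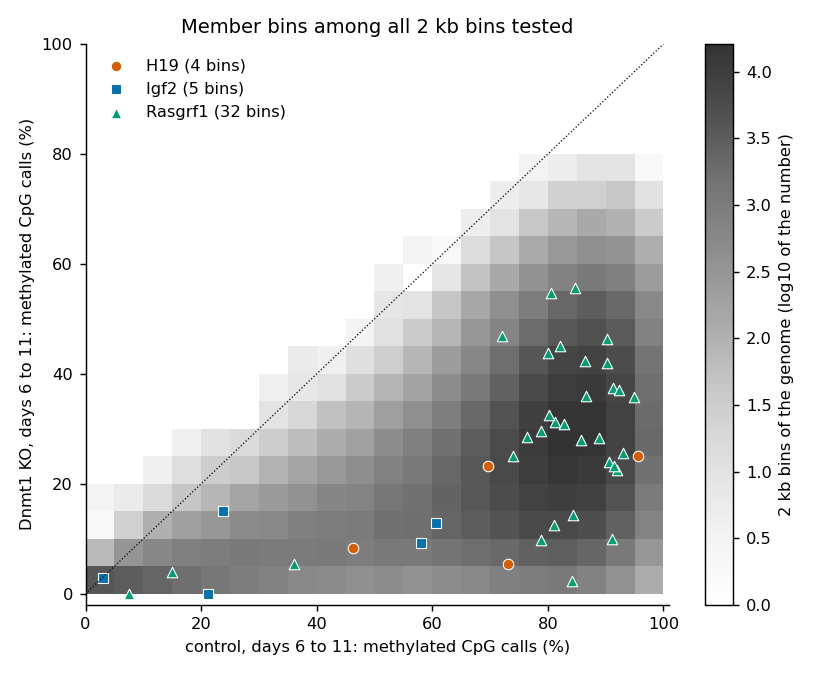
Percent of methylated CpG calls over days 6 to 11 in control (x axis) and KO (y axis) for the 41 member bins tested, drawn over the density of all 424944 bins tested (grey, log10 of the number of bins per 5 by 5 point square). The dotted line marks equal levels. All member bins lie within the range of the genome's bins, and those near the origin are the CpG-dense bins of Igf2 and the Rasgrf1 start.

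The genes around the loci were lower in the KO as well. All 12 neighbours, taken as gene bodies, were called lower over days 6 to 11, with a median of -48.4 points, beside 95.3% of all 2 kb bins and their median of -52.5. A gene body can hold far more calls than a 2 kb bin, such as 1142 control calls of these days in Adamts7. The shares called are thus not directly comparable. One of the neighbours, Igf2as, overlaps Igf2 bins counted above. Around H19 and Igf2 they were Ins2 (insulin), at 73.3% in control and 16.7% in KO, Th (tyrosine hydroxylase), at 77.0% and 24.1%, and Igf2as, Mrpl23, Tnnt3, Lsp1 and Nctc1. Around Rasgrf1, Ankrd34c had the lowest KO level, 4.35% against 59.7% in control, and Ctsh, Morf4l1, Adamts7 and Tmed3 kept 15.6% to 30.03%.

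The starts of other imprinted genes gave a wider range. Of 17 names 15 were in the annotation and 12 had enough calls, and 10 of these 12 were called lower over days 6 to 11, with a median of -31.0 points, beside the 95.3% and -52.5 points of all 2 kb bins. Nespas, the antisense transcript of the Gnas cluster, went from 31.2% to 0 of 124 calls, which allows up to 2.42%, and Peg3, a zinc finger gene expressed from the paternal allele, from 33.3% to 1.15%. Plagl1, a growth-restraining zinc finger gene, went from 65.8% to 5.23%. Meg3, a maternally expressed noncoding RNA whose control region is methylated on the paternal allele like those of H19 and Rasgrf1, went from 88.7% to 23.3% at its start. Mcts2 (-4.16 points) and Zdbf2 (-4.62) were already low, at 8.46% and 4.62% in control, and were not called. Neither could fall by the 10 points that a call needs, so neither could be called lower.

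Bins elsewhere followed courses like those of the H19 control-region bin and of the Rasgrf1 bin from 30 to 32 kb upstream. A minimum of 20 calls in each group was asked of the searched bins only. The H19 bin itself had 14 calls in control day 6. The Rasgrf1 bin had 13 in control day 6, 17 in KO day 3 and 16 in KO day 9, so both courses rest partly on few reads. Among 12550 bins with at least 20 calls in each group, the course of the H19 bin over the 10 groups was closest, at a root mean square difference of 7.85 points, to that of a bin in Ahr, a ligand-activated transcription factor, and then to bins in Rbpms (9.05), Tanc1 (10.1) and 4933407C03Rik (10.3). The closest to the Rasgrf1 bin from 30 to 32 kb upstream, at 6.61 points, was a bin between H19 and Igf2, 30673 bases past the end of Igf2, followed by a bin 13071 bases from Gm5373 (6.98) and bins in Ccnt1 (7.25) and Gm11608 (7.29). The Gm11608 bin (chr1:63314001-63316000) lies near the 2 kb taken as the start of the imprinted gene Zdbf2 (chr1:63318839-63320838).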

How the data were processed

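Per the study's methods, the authors ran Trim Galore on the bisulfite reads, mapped them to NCBIM37 with Bismark (0.12.3 per the labels, another version in the methods), removed duplicates and deposited, per library, methylated and unmethylated call counts of each cytosine. The percent column that the authors deposited is the methylated share of these counts at every entry. A minimum coverage before deposition is not given in the sources used here. Low coverage made single cytosines unusable, so counts were summed over stretches. Cytosines outside a CpG of the reference (0.101% to 0.120% of those listed) were left out, and both strands of a CpG were joined. Region levels per library were compared by exact permutation of genotype within days (2592 arrangements), with Benjamini-Hochberg adjustment over 8 regions. An exact test within a single day cannot go below p = 0.333. 2 kb bins were fitted with a quasi-binomial model, a Wald test and adjustment over all bins, with limma 3.58.1 (R 4.3.3). Comparisons of single days had 1 level per genotype and day. There the prior degrees of freedom were infinite, so a single dispersion of 1.71 served all bins. Comparisons that summed the days from day 6 on gave these days 1 level per genotype. There each bin's dispersion was moderated towards 1.69, with 221 prior degrees of freedom. The code was tested on simulated data. Bins are named by the member genes, the control regions, gene starts and the extreme KO levels of each locus. The members, regions and lists were chosen with earlier results of these data known. Motifs were searched on both strands (Python 3.11.15). Alternatives tried were other call minimums, bin sizes and starts, limma, a replicate block, means over CpGs, wider stretches and leaving out cytosines of over 20 calls or each library.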

Additional observations from a re-analysis of the deposited data

Results flagged for a closer look

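The KO minus control difference was lower at days 3 to 11 than at day 1, with an adjusted p below 0.05 in 5 of the 8 regions. The test was an exact permutation of genotype within days with Benjamini-Hochberg adjustment over the 8. It takes the genotypes to be alike at every day, so a small p does not by itself show a change between days. The change in the KO minus control difference was -76.4 points at 0 to 2 kb upstream of H19 and -64.0 points at 4 to 10 kb (adjusted p = 0.00309 for both, from the smallest exact p the design gives). It was -72.7 points at 30 to 32 kb upstream of Rasgrf1 (exact permutation, adjusted p = 0.00617), -44.3 points in the Rasgrf1 body and -27.8 points in the Igf2 body (exact permutation, adjusted p = 0.0123 for both). At day 1 itself the KO minus control difference was 14.5 points at 0 to 2 kb upstream of H19 and 12.1 points in Igf2, both above 0. It was -5.09 points in the Rasgrf1 body and already -21.1 points in the H19 body. In Igf2 the mean over days 3 to 11 was -15.7 points, so the difference changed sign more than it grew. For the H19 bin from 2 to 4 kb the change was -43.6 points (exact permutation, adjusted p = 0.0873), for the rest of the Rasgrf1 upstream sequence -43.1 points (0.0710) and for the H19 body -13.7 points (0.632).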

How the results depend on the processing

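Leaving out cytosines with over 20 calls, keeping cytosines outside CpGs and widening the stretches changed no direction and no call of a region. With means over CpGs the H19 bin from 2 to 4 kb upstream no longer passed (-33.8 points, exact permutation, adjusted p = 0.0582). Deviations of same-numbered libraries were uncorrelated over 361029 bins of 4 kb (r from -0.00122 to 0.000435 by day). Counting noise at few calls per bin pulls r towards 0, so this cannot decide whether the replicate numbers pair the libraries. With a replicate block, the H19 body stood at -32.1 points (exact sign-flip test, adjusted p = 0.0580) and the Rasgrf1 ratio of body to upstream at 0.57 (0.0625). No other region changed its call under the block. With Rasgrf1 28 to 30 kb upstream as the stretch, chosen after the data were seen, the difference was -12.9 points, the change relative to autosomes 0.39, the H19 change minus the Rasgrf1 change -22.9 points, and the stretch minus the rest of its upstream sequence -34.3 points in control and -5.20 in KO, of which none passed. The cause of these changes was not tested.

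Without 1 library each, the H19 bin from 2 to 4 kb ranged from -41.8 to -18.6 points and kept its call only without control day 1 replicate 2, day 3 replicate 1, day 9 replicate 2 or day 11 replicate 1, or without KO day 1 replicate 2 or day 11 replicate 2. The H19 body ranged from -37.3 to -26.6 and lost its call without control day 6, day 9 replicate 2 or day 11 replicate 2, or KO day 3 replicate 1, day 6, day 9 replicate 2 or day 11 replicate 1. Relative to autosomes, the H19 bin ranged from -0.91 to 0.37 and H19 4 to 10 kb from -0.29 to 0.10 (above 0 in both without either day 6 library), Igf2 from -0.0030 (without control day 11 replicate 1) to 0.45, and the rest of the Rasgrf1 upstream sequence from -0.50 to -0.30 (passing without KO day 1 replicate 2, at -0.44, exact permutation, adjusted p = 0.0185). The Rasgrf1 stretch minus the rest in KO ranged from -2.26 (without KO day 9 replicate 2) to 4.97. The ratio of body to upstream ranged from 0.46 to 0.69 at Rasgrf1 and from 0.58 to 1.13 at H19, where it passed without KO day 1 replicate 2 or day 3 replicate 1. The other regions kept their calls and directions without any library. Levels pooled over days 6 to 11 without 1 library each, tried after the data were seen, moved by over 1.5 times only at Rasgrf1 30 to 32 kb without KO day 11 replicate 2 (from 10% to 18.6%) and, at 28 to 30 kb, without control day 9 replicate 1 or KO day 9 replicate 2.

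Counts of bins follow the comparisons KO minus control at days 1, 3, 6, 9, 11 and 6 to 11, then KO day 3 minus day 1 and KO days 6 to 11 minus day 3. They were 749, 225197, 266207, 296090, 267935, 405156, 168274 and 2454 of 424944 bins genome-wide, and 0, 20, 21, 28, 20, 36, 14 and 0 of 41 among members. With at least 10 calls in each group, which left 123257 bins genome-wide and 14 member bins, they were 239, 66974, 80668, 84389, 75854, 112794, 51059 and 314, with 0, 7, 7, 7, 7, 9, 6 and 0 members. With at least 1 call, 1026335 bins genome-wide and 84 member bins they were 1522, 446328, 476207, 634310, 576707, 963607, 331492 and 8458, with 0, 31, 38, 58, 43, 76, 26 and 2. limma, which needs calls in every library and kept 339215 bins genome-wide and 27 member bins, gave 1, 131238, 118468, 214190, 170798, 318324, 69317 and 3, with 0, 11, 9, 19, 12, 24, 4 and 0, and with a replicate block 1, 130298, 117366, 213810, 170117 and 318403, with 0, 11, 9, 19, 12 and 24. The block could not be fitted between days. In bins of 4 kb (465080 genome-wide and 43 of the members) they were 1011, 350829, 376725, 414717, 397317, 459561, 289506 and 1202, with 1, 28, 30, 41, 31, 42, 25 and 1. Shifted by 1 kb (424840 and 36 bins) they were 804, 225156, 266368, 295940, 267539, 404905, 168521 and 2471, with 0, 13, 22, 28, 18, 35, 10 and 1. All member bins called under these settings were lower, as were 405154 of the 405156 bins called genome-wide at days 6 to 11 in the main setting. Without 1 library each, genome-wide counts ranged over 519 to 1874, 122170 to 272373, 184427 to 233933, 161430 to 361502, 168481 to 327791, 279218 to 484273, 92834 to 202819 and 1492 to 5076, and members over 0 to 0, 10 to 23, 13 to 20, 12 to 36, 13 to 29, 19 to 45, 8 to 18 and 0 to 2. The lowest count of 19 at days 6 to 11 came without KO day 9 replicate 1, and KO day 11 replicate 2 left 23. The number of bins tested changed with each of these settings. For those without 1 library it is not given here, so their counts cannot be read as shares.

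Depth limited the bins, since 54 of the 95 had fewer than 5 calls in some group, and a bin without a call is not shown to have kept its methylation.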
